A study of Mus musculus with 6 samples.

Results

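Voltage-gated sodium channels were followed through 7 genes in mouse hippocampus, the alpha subunits Scn1a, Scn2a, Scn3a and Scn8a and the beta subunits Scn2b, Scn3b and Scn4b. The genes were chosen by symbol, and all 7 were found among the 52550 genes of the count table; 17 of the 40961 listed splicing events lay in them. The animals were wild-type males of the strain C57BL/6 J, injected when 8 weeks old with virus into CA1 on both sides, carrying control shRNA in 1 group and shRNAs against L-DL, the long isoform of the RNA-binding protein hnRNP DL, in the other. Hippocampal RNA gave 3 control and 3 L-DL KD libraries. Their sample titles read WT and hnRNPDL-KD, and another label field calls the second group hnRNP DL-/-. The account of wild-type mice given shRNA is the paper's. The shRNAs were driven by an H1 promoter, which is active in most cell types, beside a fluorescent protein under a CamkIIα promoter, and the control virus was given at a higher titre than the L-DL virus. How many mice made up a library is not given in the sources used here, so p-values measure the spread between these libraries.

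The count tables held 16052529 to 17913064 reads per library. Hnrnpdl, the targeted gene, did not fall. In CPM, read counts scaled to library size, it stood at 176, 184 and 171 in controls and at 217, 150 and 173 in the L-DL KD libraries, which are therefore called KD-labelled libraries from here on, and its log2 fold change was 0.03 (SE 0.12, adjusted p = 0.898 in edgeR's quasi-likelihood test). The gene total sums both isoforms, so it does not check the long isoform alone. The groups differed widely elsewhere: 5379 of 17621 genes tested passed an adjusted p of 0.05, and the median log2 fold change over all genes was 0.01.

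In neurons, the alpha subunit forms the pore that opens on depolarisation and lets sodium in to start the action potential. Nav1.1, encoded by Scn1a, is known for carrying much of the sodium current of parvalbumin interneurons, while Nav1.2 from Scn2a and Nav1.6 from Scn8a serve the axon initial segment of pyramidal cells, with Nav1.6 also at nodes of Ranvier. Nav1.3 from Scn3a is best known from the developing brain. Beta subunits are single-pass membrane proteins that change gating and surface level of the alpha subunit and act as adhesion molecules, and the beta4 subunit from Scn4b is linked to resurgent sodium current.

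Of the 7 genes, 5 fell in the KD-labelled libraries and none rose (edgeR's quasi-likelihood test, Benjamini-Hochberg adjusted over all genes tested). That is 71.4% of the members, beside 15.0% of all genes tested that were called lower, 15.6% called higher and 30.5% called in either direction. Scn4b and Scn1a fell most, Scn8a and Scn3b fell to about the same extent, and Scn2b fell least of those called. Scn2a and Scn3a did not pass the test. In bulk tissue, fewer cells of a type and less RNA per cell cannot be told apart.

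Scn8a, on chromosome 15 (chr15:100869858-101045938, GRCm38, plus strand), was the alpha subunit gene with the most reads. It was at 366, 338 and 342 CPM in controls and at 232, 219 and 208 CPM in the KD-labelled libraries. All 3 of the latter lay below all controls. The log2 fold change was -0.67 (SE 0.07, adjusted p = 0.000482), or 62.9% of the control mean.

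Scn1a (chr2:66270778-66440840, minus strand) was at 93.5, 94.5 and 104 CPM in controls and at 42.1, 40.1 and 33.5 CPM in the KD-labelled libraries. The groups did not come near each other, with a log2 fold change of -1.34 (SE 0.10, adjusted p = 0.000162) and 39.6% of the control mean left. Scn2a (chr2:65620771-65767447, plus strand) was at 203, 199 and 221 CPM in controls and at 176, 198 and 161 CPM in the KD-labelled libraries. Its groups were apart by a narrow margin, since the highest KD-labelled library was just under the lowest control, and the log2 fold change of -0.22 (SE 0.09) did not pass (adjusted p = 0.0968). Without L-DL KD replicate 2, the value was -0.29 and passed (adjusted p = 0.0449). Scn3a (chr2:65457118-65567627, minus strand) was at 49.1, 57.4 and 58.0 CPM in controls and at 51.6, 58.1 and 51.0 CPM in the KD-labelled libraries. Those ranges overlapped, and the log2 fold change was -0.03 (SE 0.09, adjusted p = 0.818).

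Among the beta subunits, Scn4b (chr9:45138395-45154152, plus strand) had the fewest reads and the largest change of the 7 genes. It was at 23.1, 24.6 and 23.2 CPM in controls and at 4.52, 6.39 and 4.11 CPM in the KD-labelled libraries. The log2 fold change was -2.24 (SE 0.18, adjusted p = 0.000193), and 21.2% of the control mean was left. Scn3b (chr9:40269217-40291618, plus strand), whose beta3 protein binds the alpha subunit without a covalent bond, was at 291, 294 and 282 CPM in controls and at 175, 218 and 169 CPM in the KD-labelled libraries. Its spread was wider in the second group, but the groups did not overlap and the log2 fold change was -0.63 (SE 0.10, adjusted p = 0.00299). Scn2b (chr9:45117782-45130070, plus strand), whose beta2 protein is joined to the alpha subunit by a disulphide bond as beta4 is, was at 225, 208 and 213 CPM in controls and at 172, 171 and 161 CPM in the KD-labelled libraries. The log2 fold change was -0.35 (SE 0.06, adjusted p = 0.00519), again with no overlap. Over all members, the groups were apart and lower in 6 of 7, beside 23.4% of all genes tested. No exon of another annotated gene overlapped an exon of these 7 genes.

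**Figure D1:**
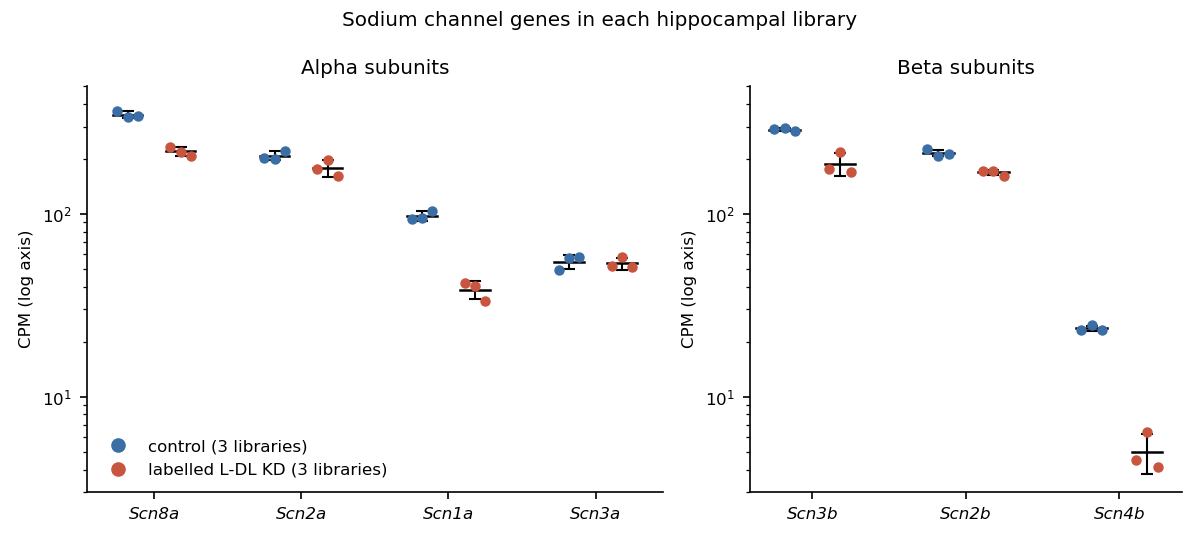
CPM on a log axis for each of the 6 libraries (points), with the mean and SD of each group in black, for the alpha subunits (left) and beta subunits (right). The KD-labelled libraries lie below all controls for Scn8a, Scn2a, Scn1a, Scn3b, Scn2b and Scn4b, and overlap the controls for Scn3a.

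To compare levels between genes, CPM was divided by the exon length of each gene in kilobases. In controls, Scn3b was highest at 52.9 ± 1.13 CPM per kb (SD, n = 3), then Scn2b at 46.2 ± 1.86, Scn8a at 22.1 ± 0.953, Scn2a at 16.3 ± 0.912 and Scn1a at 8.73 ± 0.520 CPM per kb. No neighbours in this order overlapped. Scn4b at 4.75 ± 0.165 and Scn3a at 4.40 ± 0.401 CPM per kb came last and overlapped each other. In the KD-labelled libraries, Scn2b at 36.2 ± 1.32 and Scn3b at 34.3 ± 4.93 CPM per kb overlapped at the top, and Scn2a at 14.0 ± 1.45 and Scn8a at 13.9 ± 0.758 CPM per kb overlapped below them. Scn3a, last in controls, stood above Scn1a here, at 4.30 ± 0.316 against 3.46 ± 0.404 CPM per kb, and Scn4b was lowest at 1.01 ± 0.244 CPM per kb.

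The make-up of the alpha subunit RNA was then taken as each gene's share of the summed CPM per kb of the 4 genes. The sum itself was 51.6 ± 1.43 CPM per kb in controls and 35.7 ± 2.46 CPM per kb in the KD-labelled libraries (SD, n = 3 each), or 69.2% of control. Scn1a made up 16.3, 16.9 and 17.6% of it in controls and 10.4, 9.55 and 9.12% in the KD-labelled libraries. Scn2a made up 31.0, 31.2 and 32.7% in controls and more, 37.9, 41.2 and 38.4%, in the KD-labelled libraries. The share of Scn3a was 7.65, 9.17 and 8.78% in controls against 11.4, 12.4 and 12.4%, and that of Scn8a was 45.1, 42.7 and 40.9% against 40.4, 36.8 and 40.1%. None of the 4 shares overlapped between groups, each with an exact two-sided permutation p of 0.1, the smallest that 3 against 3 libraries allow. The 4 shares make up the whole of the sum in each library, so they are not separate results. Neither Scn2a nor Scn3a rose in mean CPM. For Scn8a the gap between the groups was less than 1 SD of either group.

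The 3 beta subunits summed to 104 ± 2.11 CPM per kb in controls and 71.4 ± 5.99 CPM per kb in the KD-labelled libraries (SD, n = 3 each), 68.8% of control and close to the figure for the alpha subunits. Scn4b was at 4.37, 4.77 and 4.57% of the sum in controls and at 1.30, 1.64 and 1.24% in the KD-labelled libraries. Scn2b was at 45.5, 43.2 and 44.8% in controls and at 52.9, 47.2 and 52.2% in the KD-labelled libraries. Neither share overlapped between the groups, and both have the smallest exact permutation p allowed, 0.1. The 3 beta shares are tied to each other in the same way, and Scn2b itself fell in CPM. Scn3b was at 50.1, 52.0 and 50.6% in controls and at 45.8, 51.2 and 46.5% in the KD-labelled libraries, which overlapped (exact permutation p = 0.3).

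**Figure D2:**
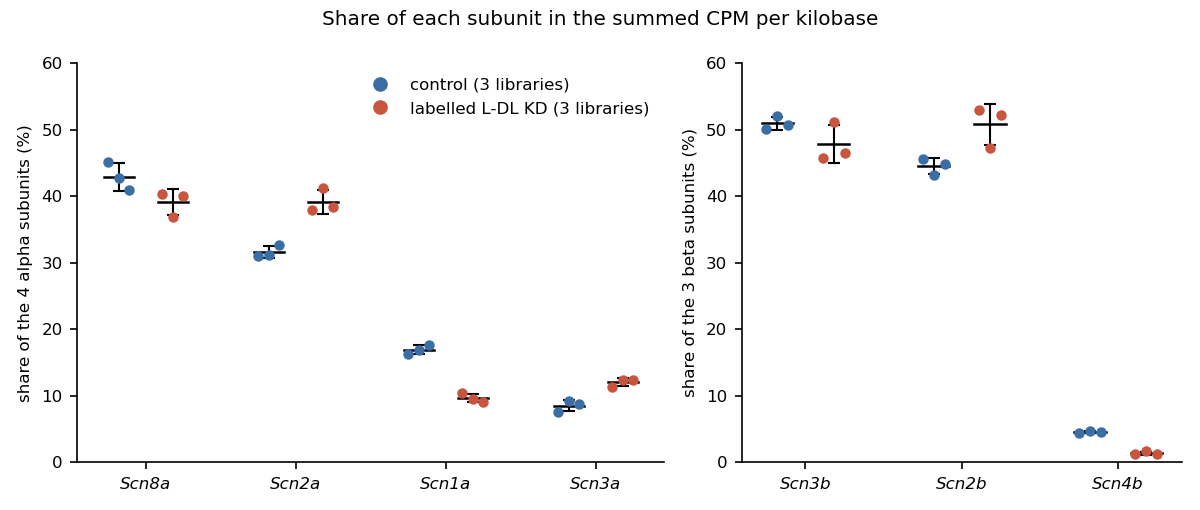
Share in percent of each gene in the summed CPM per kb of the 4 alpha subunits (left) and of the 3 beta subunits (right) in each library, with mean and SD in black. Scn1a and Scn4b take a smaller share and Scn2a, Scn3a and Scn2b a larger share in the KD-labelled libraries, though none of the last 3 rose in mean CPM.

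Markers of cell types moved with the same groups. Over all genes tested, 15.0% were called lower and 15.6% higher. Of 8 genes for neurons in general, 7 were called lower, and their summed level was 4716 to 4934 CPM in controls and 2687 to 3330 CPM in the KD-labelled libraries. Of 8 genes for GABAergic interneurons, 5 were called lower and the sum went from 633 to 707 CPM down to 246 to 454 CPM. Of 5 genes for parvalbumin interneurons and other cells rich in Scn1a, 4 were called lower, from 303 to 362 CPM down to 150 to 201 CPM, while Pvalb itself had a log2 fold change of 0.28 (adjusted p = 0.238). Of 6 CA1 pyramidal genes, 3 were called lower and 1 higher, with sums of 452 to 553 and 374 to 394 CPM. All 8 microglial genes were called higher, from 1122 to 1399 CPM up to 2377 to 3022 CPM. Without control replicate 1, 4 of the neuronal and 3 of the GABAergic genes were called, and without control replicate 2 or L-DL KD replicate 3, 2 of the CA1 genes. The part of cell composition in the changes of the sodium channel genes was not tested.

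Other lists moved less evenly, beside 15.0% of all genes called lower and 15.6% called higher. The 1 gene each called higher for oligodendrocytes, striatum and thalamus is near that share. Of 6 dentate granule cell genes, 2 were called lower and 2 higher (508 to 574 and 586 to 623 CPM), and of 6 astrocyte genes 2 were called lower and 1 higher (7031 to 7154 and 5626 to 6629 CPM). For oligodendrocytes 1 of 6 was called higher (7565 to 8082 and 6540 to 9558 CPM), and for their precursors 3 of 4 (278 to 287 and 306 to 364 CPM). Scn4b is abundant in striatum, a neighbour of the dissected tissue; of 6 striatal genes 1, Drd1, was called higher and none lower, with sums of 76.3 to 117 CPM in controls and 67.9 to 117 CPM in the KD-labelled libraries. Of 5 thalamic genes 1 was called higher (143 to 174 and 176 to 188 CPM). Without L-DL KD replicate 1, 2 oligodendrocyte and 4 striatal genes were called, and without L-DL KD replicate 3, 3 oligodendrocyte genes. No gene of these lists was at 0 in all libraries.

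Each member was also set against the mean log2 CPM of the 8 general neuronal genes, a scaling chosen after the data were seen. That mean was 0.67 lower on the log2 scale in the KD-labelled libraries. The 8 genes did not change alike, with log2 fold changes from -1.35 for Rbfox3 to -0.20 for Syn1. Set against their mean, the members separated into 3 sets, which depend on this choice of reference. Scn8a and Scn3b, with differences of -0.0022 and 0.03 relative to the list, overlapped between groups. Scn1a and Scn4b were still lower in all 3 libraries labelled L-DL KD, by -0.67 and -1.60 (exact permutation p = 0.1 each, n = 3 per group). Scn2a, Scn3a and Scn2b were higher relative to the list in all 3, by 0.44, 0.63 and 0.31 (exact permutation p = 0.1 each).

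**Figure D3:**
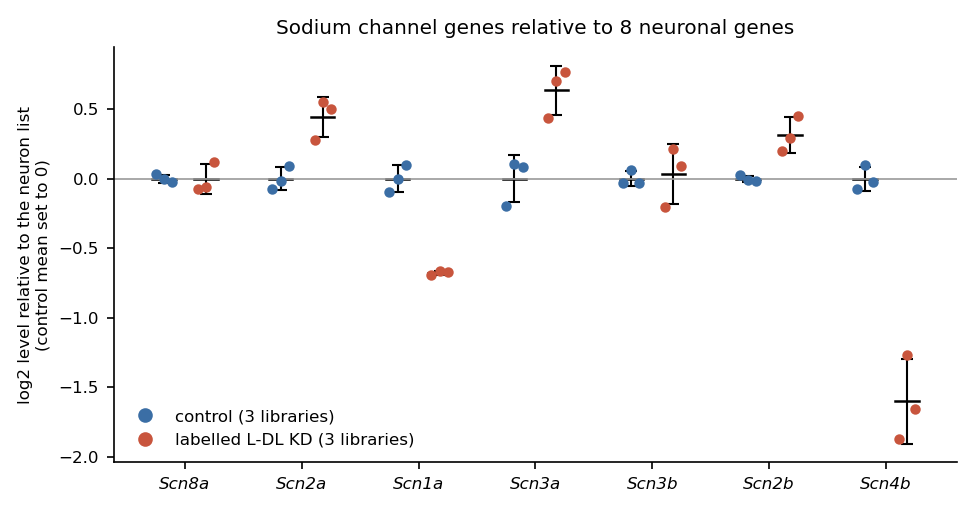
Log2 CPM of each gene minus the mean log2 CPM of 8 neuronal genes, per library, with the control mean of each gene set to 0 and the mean and SD of each group in black. Scn1a and Scn4b lie below 0 in every KD-labelled library, Scn2a, Scn3a and Scn2b lie above all controls, and Scn8a and Scn3b overlap the controls.

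Among the other genes of the family, Nalcn, the sodium leak channel, fell from 86.4 ± 6.34 to 66.0 ± 8.95 CPM (log2 fold change -0.39, adjusted p = 0.0272). It was no longer called when any of control replicates 1 and 3 and L-DL KD replicates 2 and 3 was left out. Scn9a and Scn7a, mainly channels of peripheral nerve and glia, were each under 5 CPM on average in both groups and did not pass (adjusted p = 0.120 and 0.809). Scn4a, Scn10a and Scn11a had too few counts to be tested. So 1 of 3 tested genes of the wider family was called, beside the 15.0% of all genes called lower.

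Of 32 genes whose products anchor, bind or modify sodium channels, 11 were called lower and 3 higher, and 18 did not pass. The share called lower was 34.4%, beside 15.0% of all genes tested, and the 14 called in either direction stood beside 30.5% of all genes. The median log2 fold change of the partners was -0.13, against 0.01 over all genes. Without control replicate 2 or control replicate 3, 9 of the 32 were called in all.

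At the axon initial segment, ankyrin-G holds sodium channels to the spectrin scaffold. Its gene Ank3 went from 411 ± 6.24 to 302 ± 29.3 CPM (SD, n = 3), with a log2 fold change of -0.44 and an adjusted p of 0.00499. Sptbn4, for beta4 spectrin, fell by 0.40 on the log2 scale (adjusted p = 0.0227). Kcnq3, for a potassium channel that ankyrin-G anchors at the same place, fell by 0.89 (adjusted p = 0.000497). Cntnap1, for the Caspr protein beside nodes of Ranvier, had the lowest adjusted p of the partners. It went from 225 ± 5.99 to 91.0 ± 18.8 CPM, a log2 fold change of -1.31 (adjusted p = 0.000440). Nfasc, Nrcam and Trim46 did not pass, at log2 fold changes of 0.08, 0.11 and 0.04 (adjusted p = 0.695, 0.297 and 0.705 in edgeR).

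FGF homologous factors bind the intracellular tail of the alpha subunit and shift its inactivation. Fgf12 and Fgf13 fell by 0.63 and 0.84 on the log2 scale (adjusted p = 0.00122 and 0.00839), while Fgf14 had a log2 fold change of 0.15 and did not pass (adjusted p = 0.439). Calmodulin binds the same tail, and Calm2 fell by 0.65 (adjusted p = 0.000560). Nedd4l, a ubiquitin ligase that removes sodium channels from the membrane, had a log2 fold change of 0.12 (adjusted p = 0.264). The 3 genes called higher were Tnr, for the matrix protein tenascin-R, at 0.59 (adjusted p = 0.00885), the kinase gene Fyn at 0.35 (adjusted p = 0.0120) and Csnk2a1, for a subunit of the kinase CK2, at 0.24 (adjusted p = 0.0251).

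**Figure D4:**
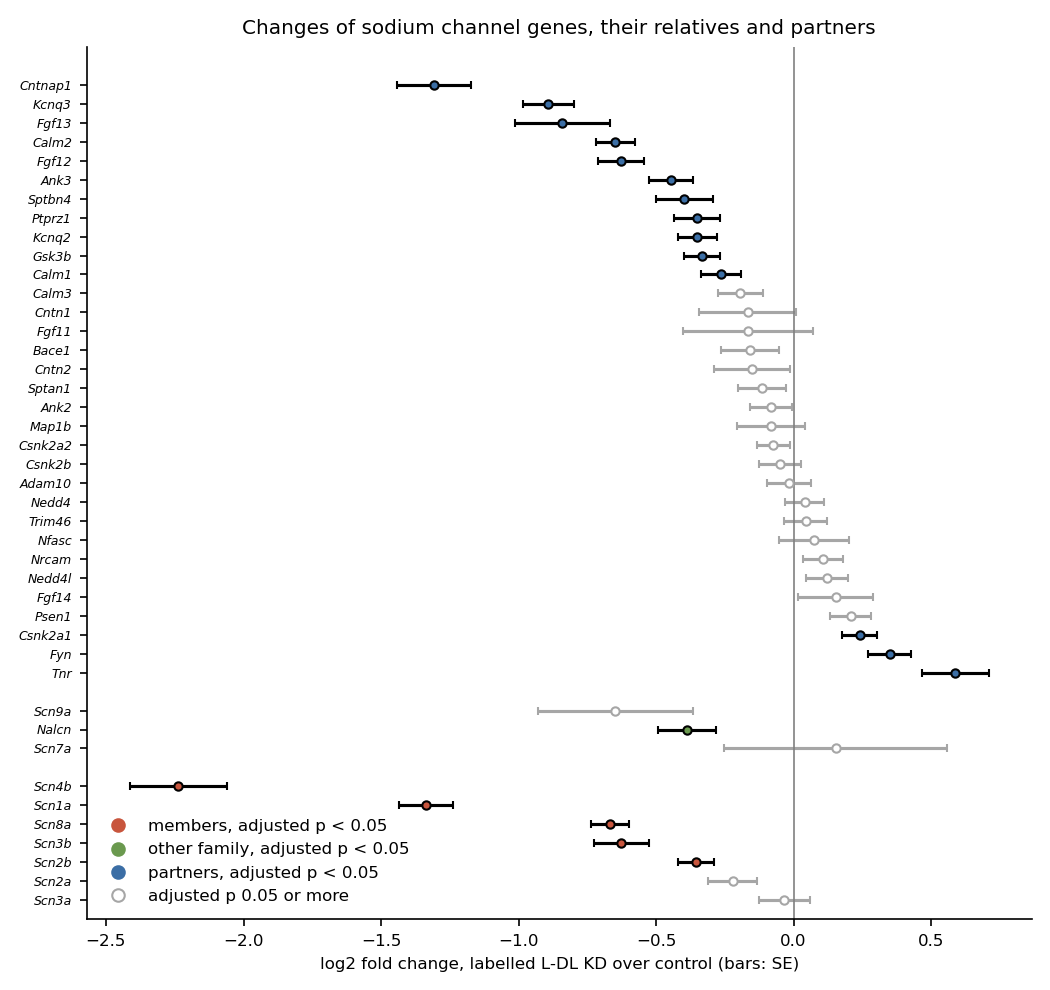
Log2 fold change of the KD-labelled libraries over control (points, bars are SE) for the 7 members, the 3 tested genes of the wider family and 32 partners, filled where the adjusted p was under 0.05. Scn4b at -2.24 and Scn1a at -1.34 lie furthest left, beside Cntnap1 at -1.31 among the partners.

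For each member, the 2 genes with the closest profile were taken from 11017 genes of at least 10 CPM on average, by the root mean square distance of their centred log2 CPM over the 6 libraries. Scn1a was closest to the neuronal marker Rbfox3 (distance 0.050) and to Camk1d (0.069), and Scn4b to the immediate early gene Arc (0.15) and to Cys1 (0.26). Scn8a was closest to Gnaq and Camta2 (0.024 and 0.027), and Scn3b to AI464131 and Magi2 (0.028 and 0.033). Scn2b was closest to Tnfrsf21 and Pcdh10 (0.019 and 0.026), Scn2a to Borcs5 and Ttll3 (0.023 and 0.034), and Scn3a to Slc38a9 and Mettl8 (both 0.026). Scn4b had no neighbour as near as those of the other members.

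The alternative exons of the sodium channel genes are known for developmental switches and for exons that disrupt the reading frame. Of the 17 events in the sodium channel genes, 8 were in Scn8a, 5 in Scn1a, 3 in Scn3b and 1 in Scn2a; Scn3a, Scn2b and Scn4b had no event in the table. After the filter on low counts 5 remained, and none passed an adjusted p of 0.05 in edgeR's quasi-likelihood test, beside 0.255% of the 18829 events tested. At an unadjusted p under 0.05, 2 of the 5 passed, beside 13.3% of all events. At an adjusted p of 0.05, limma called none either. Inclusion was taken as percent spliced in (PSI), the share of junction reads for the inclusion form after division by effective length. The junction table does not number its libraries, so they are listed in its own order.

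In the third domain of Scn8a, exons 18N and 18A lie between the same neighbours. The 18N exon is known to carry a stop codon and to occur in cells that make no Nav1.6, while 18A gives the full-length channel. They are shown because they decide whether the reading frame goes on. The capitals mark the first stop codon in the frame of the exon before, found at base 28 of 18N and nowhere in 18A.
Scn8a 18N, chr15:101023839-101023906, plus strand: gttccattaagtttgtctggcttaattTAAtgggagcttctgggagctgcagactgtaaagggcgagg
Scn8a 18A, chr15:101024261-101024383, plus strand: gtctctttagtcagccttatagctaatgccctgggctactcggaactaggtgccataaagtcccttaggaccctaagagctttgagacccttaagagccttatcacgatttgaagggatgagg
The 18A exon has 123 bases, a multiple of 3, and is exon 21 of 27 in transcript Scn8a-201. The 18N exon has 68 bases and is annotated in a processed transcript only.

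Inclusion of 18A against skipping was 98.7, 100 and 100% in controls and 91.7, 98.0 and 91.0% in the KD-labelled libraries. The groups were apart, with 1, 0 and 0 skipping reads in controls and 5, 1 and 3 in the others. The difference in log2 odds was -3.36 (SE 1.17), which did not pass after adjustment (adjusted p = 0.264 in edgeR). The same skipping reads are counted against 18N, so the events are not separate evidence. Taken as a share of 18N and 18A together, a measure added after the data were seen, 18N was at 3.64, 6.42 and 10.4% in controls and at 3.63, 10.3 and 42.9% in the KD-labelled libraries. Only the last library stood apart, with 33 reads of 18N against 55 of 18A, and the exact permutation p was 0.7. Without it, the mean of the other 2 was 6.99%, beside 6.83 ± 3.41% in controls (SD, n = 3).

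In Scn1a, the exon known as 20N has a length of 64 bases, which is no multiple of 3, and GENCODE places it only in a transcript marked for nonsense-mediated decay. It is printed because its inclusion shifts the frame; it holds no stop in the frame of the exon before, so nothing is in capitals.
Scn1a 20N, chr2:66293832-66293895, minus strand: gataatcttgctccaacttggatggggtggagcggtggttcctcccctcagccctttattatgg
Its inclusion was 14.2, 7.78 and 16.4% in controls and 9.76, 20.9 and 8.08% in the KD-labelled libraries, from 9 to 32 reads per library. The groups overlapped, at means of 12.8 ± 4.50% and 12.9 ± 6.95% (SD, n = 3), and the event was under the filter. No difference was detectable at this depth.

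In Scn3b, 2 events passed the filter. An alternative 3′ splice site adds 4 coding bases (chr9:40277068-40277071), and the longer form was at 97.5, 97.3 and 95.6% in controls and at 97.7, 100 and 99.1% in the KD-labelled libraries. Those groups were just apart, with 4 to 8 reads of the shorter form in controls and 0 to 2 in the others, and the adjusted p was 0.436 in edgeR. A 90-base intron beyond the coding region (chr9:40288454-40288543) was retained in 28.8, 28.6 and 36.4% in controls and in 33.4, 37.9 and 36.7% in the KD-labelled libraries, with an adjusted p of 0.725 in edgeR. Of the 5 tested events, 2 had groups that did not overlap, beside 18.4% of all events tested.

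The other 12 events were under the filter. Not all of them had few reads. A skipped exon of Scn3b had 259 to 471 reads per library, but only 0 to 2 for skipping. Among the 9 skipped exons of the members, 5 were at 90% inclusion or more in every library, including 18A. The alternative 5′ splice site that adds 33 coding bases to an exon of Scn1a (chr2:66324571-66324603) was used in 13.4 ± 10.2% in controls and 5.41 ± 6.13% in the KD-labelled libraries, with 13 to 29 reads per library and overlapping groups. A site that adds 30 bases to Scn8a (chr15:100984046-100984075) was used in less than 3% in every library. Partner and wider family genes held 194 events, of which 112 were tested and none passed after adjustment. At an unadjusted p under 0.001 in edgeR, 3 of these 112 passed, beside 184 of all 18829 events tested. Those 3 were skipped exons with lower mean inclusion in the KD-labelled libraries than in controls. Mean inclusion went from 64.1 to 31.7% in Ptprz1 (adjusted p = 0.0802) and from 29.4 to 9.61% in Nrcam (adjusted p = 0.0781). In Calm3 it went from 99.99 to 99.6% (adjusted p = 0.0685).

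**Figure D5:**
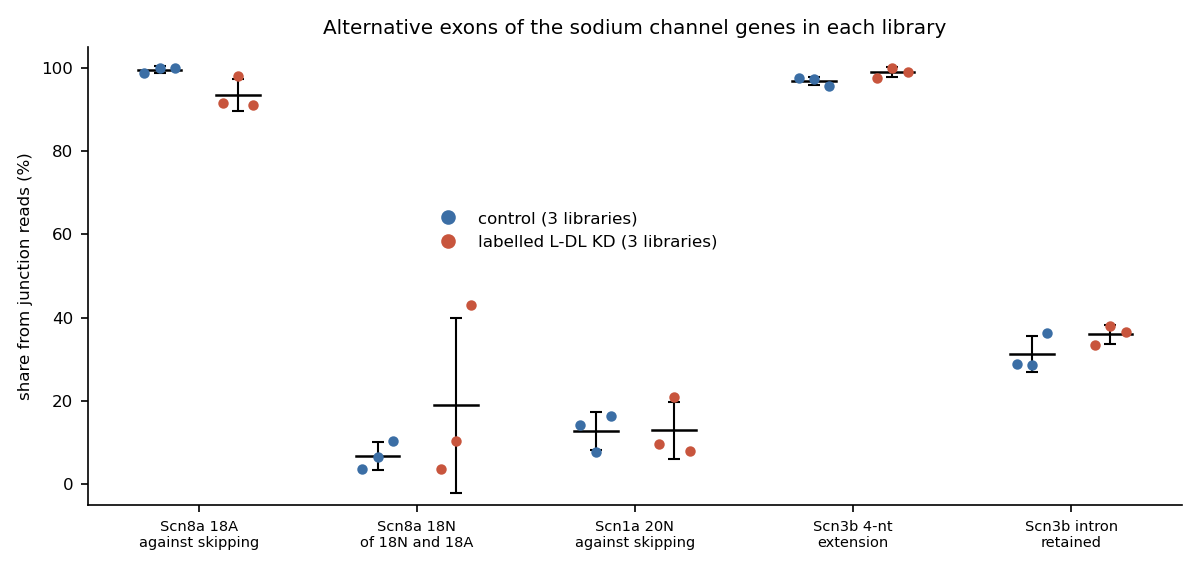
Share in percent of the named form among junction reads in each library (points), with mean and SD of each group in black, at 5 alternative segments. The shares overlap between the groups except for Scn8a 18A against skipping and the Scn3b extension of 4 nt, and 1 KD-labelled library is at 42.9% for 18N.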

How the data were processed

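Hippocampal poly(A) RNA of 3 control and 3 L-DL KD libraries was sequenced by the authors as paired reads, and processing notes name HISAT2 2.1.0, Bowtie 1.1.2, HTSeq 0.6.1 and build mm10. Raw counts per gene were deposited by the authors; whether counting used strand is not given in the sources used here. The second deposited table holds rMATS events with junction counts (unit other) and effective lengths for each library, its group columns assigned from the direction of the difference defined by the study; its own p-values, FDR and inclusion differences were not used. Genes reaching 10 counts in 3 or more libraries were fitted with edgeR 4.0.16 (TMM, quasi-likelihood, R 4.3.3), and 147 identifiers matched no symbol. Events averaging 20 counts or more, with 1 or more of each form, were fitted with library effects. On simulated data, 132 of 200 genes changed by 2-fold were recovered among 17328 genes, with 3 unchanged genes called, and 80 of 200 changed events among 18432, with 1 unchanged event called. DESeq2 1.42.0, limma 3.58.1, other filters, scalings and left-out libraries were alternatives. The members and lists were chosen with earlier results of these data known. Named genes were all members, the measured family, up to 5 called partners in each direction, Ank3, Sptbn4, Fgf13, Fgf14 and Nedd4l, exon 18 of Scn8a, and the tested events; some of these items are not reported here. Partner events with an unadjusted p under 0.001 were also named. Exons came from GENCODE M21.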

Additional observations from a re-analysis of the deposited data

How the results depend on the processing

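With other scalings, no filter, DESeq2 or a replicate block, the same 5 of 7 sodium channel genes were called. Leaving out each library in turn gave 5 to 6 of 7. The 6th was Scn2a, at -0.29 without L-DL KD replicate 2. Scn3a ranged from -0.11 to 0.0072, and turned sign without control replicate 3 (0.0072) and without L-DL KD replicate 3 (0.0036). Hnrnpdl ranged from -0.13 to 0.15, and turned sign without control replicate 3 (-0.00081) and without L-DL KD replicate 1 (-0.13). Relative to 8 neuronal genes, the sign turned for Scn2a (0.44), Scn3a (0.63), Scn2b (0.31) and Scn3b (0.032). The number of family genes called was 0 to 1 with a library left out and that of partners 9 to 19. Neuronal genes called ranged from 4 to 8 of 8, with 4 without control replicate 1, and GABAergic genes from 3 to 6 of 8, with 3 without the same library. The difference in the share of Scn1a was -5.87 percentage points without division by length, against -7.25; leaving out a library gave -7.59 to -6.92. The other alpha shares ranged from 6.54 to 8.21 (Scn2a), 3.08 to 3.86 (Scn3a) and -4.85 to -2.72 (Scn8a), and the beta shares from 5.21 to 8.07 (Scn2b), -4.77 to -2.08 (Scn3b) and -3.30 to -3.08 (Scn4b). No event was called under any alternative, including 17 tested with a minimum of 1 count of each form. Replicate numbers do not pair the samples, with correlations of deviations of 0.063, 0.157 and -0.140, and the replicate block called 5 members, 1 family gene and 13 partners. Other than the retained intron of Scn3b, the events had few junction reads or few of 1 form.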
